A study of Nannochloropsis oceanica with 44 samples.

Results

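Cells of the marine alga Nannochloropsis oceanica that had been back in nitrogen medium for 48 h were set against cells kept without nitrogen for 48 h. The contrast is the level at 48 h NR minus the level at 48 h N- of each gene, where N- stands for deprivation and NR for resupply, and it takes in all 2489 genes of the 4 deposited tables. It rests on 8 of the 44 RNA-seq libraries of the series, 4 per group. All libraries came from the wild type of strain CCMP1779, grown as shaken liquid culture in continuous light. The 48 h N- cultures had been washed into medium free of nitrogen and harvested 48 h later. The 48 h NR cultures had first spent 72 h in such medium, were then collected and put into medium with nitrogen, and were harvested 48 h after that. The NR cells were therefore 120 h past the start of deprivation, and resupply cannot be told apart from the longer time in culture. The labels give 2 biological replicates per time point and mark the 4 libraries of a group with a letter, A or B, and a number.

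Nannochloropsis is a single-celled alga studied for its oil. When nitrogen runs out, such algae stop dividing, take down part of their photosynthetic machinery and store carbon as triacylglycerol. When nitrogen comes back, they draw on that oil, rebuild chlorophyll and return to growth driven by light. The study asked how transcripts change along this way out of quiescence, and the contrast at 48 h compares cells well into that return with cells well into deprivation.

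Each gene has 1 deposited value per group, on a log2 scale, with no error and no number of replicates. No test of a difference was possible, and whether any difference exceeds the spread between cultures is unknown. Differences are counted as higher or lower once they pass 1 on this scale, a factor of 2. Every gene in the tables had passed the authors' test of condition or of its interaction with time. Their limits were an adjusted p-value below 0.01 and a log2 fold change above 1. That fold limit equals the one used here, so shares of genes past it are favoured by the selection. The 4 clusters were formed from the same columns, so counts by cluster are descriptions. The levels are relative to the other transcripts of a library, and cell number or RNA per cell was not analysed here. The identifiers carry no gene names, and 0 of the 2489 occur in the reference table of gene names, so the genes are described by cluster, by profile and by identifier, without functions.

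At 48 h more genes stood higher after resupply than lower. Of the 2489 genes, 1193 were higher in NR (47.9%) and 209 were lower (8.40%), so that 1402 differed by more than 2-fold (56.3%). The median difference was 0.95, which is 1.93-fold, with quartiles over genes of 0.03 and 1.62. A difference over 4-fold was found for 367 genes upward and for 61 downward. The differences ran from -5.18 to 7.89. Many genes lay close to the limit, with 365 between 0.8 and 1.2 and 102 between -1.2 and -0.8, so the counts depend on where the limit is put.

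The size of this imbalance depends on the scale. The median level of all genes was 9.00 at 48 h N- and 9.73 at 48 h NR, a shift of 0.73. With each column centred on its median, 542 genes were higher (21.8%) and 456 were lower (18.3%), with a median difference of 0.22. The counts in both directions came out about even, at 493 higher and 488 lower, where 0.80 was taken off every difference. Since the genes are all selected for change, it is not known which scale is right. Values below are as deposited unless said to be centred.

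The clusters differed in direction and in spread. Cluster 4, with 418 genes, had a median difference of 1.81, or 3.51-fold, with quartiles of 1.26 and 2.42. In it 357 genes were higher (85.4%) and 0 were lower. Cluster 3, with 872 genes, had a median of 1.34 and the narrowest spread, with 0.92 between its quartiles. It held 590 of the higher genes (49.5% of them) and 0 of the lower ones. Cluster 2, with 401 genes, stood on the other side, with a median of -0.80, 167 genes lower (41.6%) and 0 higher. It held 79.9% of all lower genes. Cluster 1, with 798 genes, was split, with a median of 0.49, 246 genes higher (30.8%) and 42 lower (5.26%). Its median is the one that turned with the scale, to -0.24 after centring, with 75 genes higher and 161 lower. The medians of clusters 3 and 4 stayed above 0 (0.61 and 1.08) and that of cluster 2 stayed below it (-1.53).

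**Figure D1:**
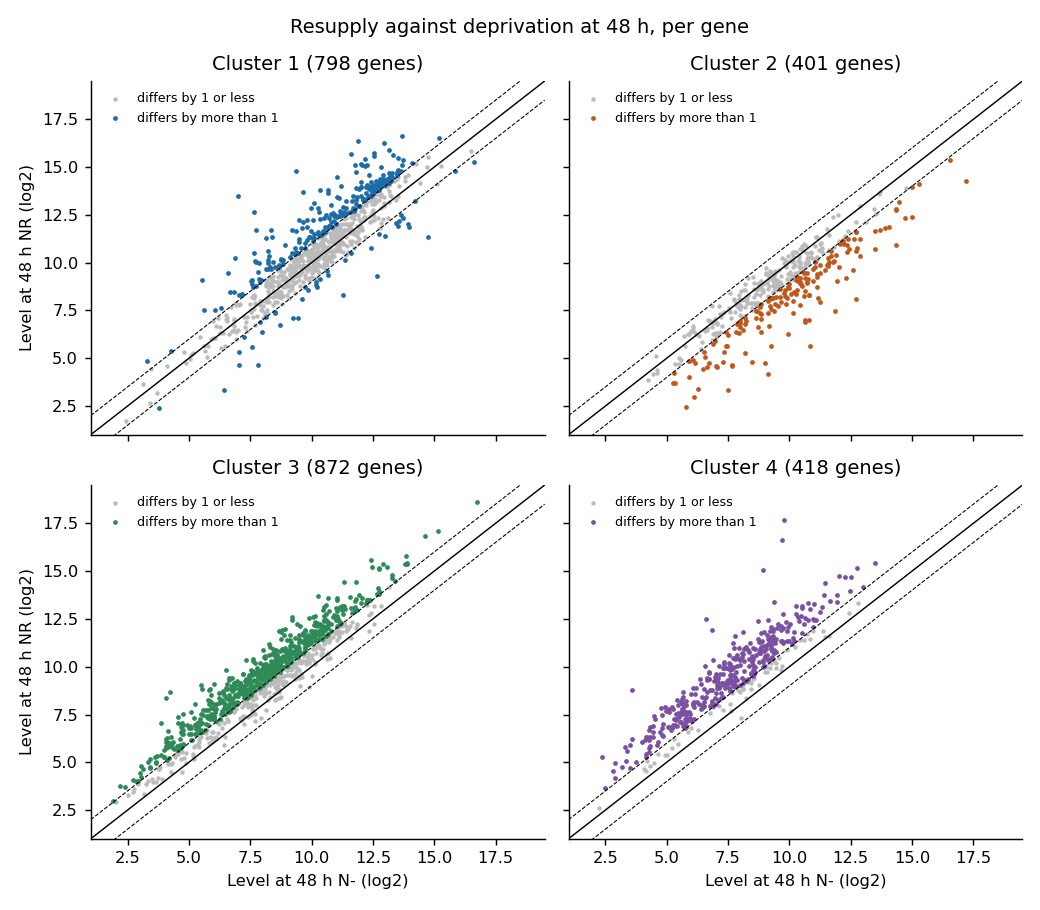
Each point is a gene, placed by its log2 level at 48 h N- (horizontal) and at 48 h NR (vertical), in 1 panel per deposited cluster; the solid line marks equal levels, the dashed lines a difference of 1, and coloured points lie outside them. Clusters 3 and 4 lie mostly above the upper dashed line (590 and 357 genes), cluster 2 has 167 genes below the lower one, and cluster 1 has genes on both sides.

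**Figure D2:**
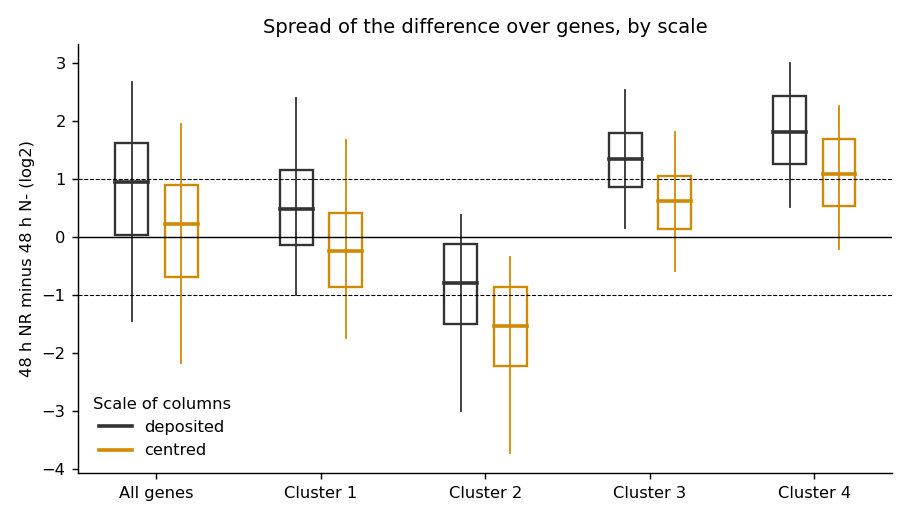
The vertical axis is the difference 48 h NR minus 48 h N- on the log2 scale over the genes of each cluster; the thick line is the median, the box spans the quartiles and the thin line runs from the 5th to the 95th percentile of genes. Black is the scale as deposited and orange is centred on column medians; the median of cluster 1 changes sign, from 0.49 to -0.24, and the other clusters keep theirs.

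A difference at 48 h can come from the deprived cells, from the resupplied cells or from both. To separate these, both 48 h values were counted from 6 h N-, the earliest deposited time. The difference at 48 h is by arithmetic the NR part less the N- part, so these counts divide the difference up and add no evidence for it. Among the 1193 higher genes, 615 (51.5%) had a 48 h N- value more than 2-fold below 6 h N- while the NR value was not 2-fold above it. In 270 (22.6%) the NR value alone was past the limit, in 67 (5.62%) both were, and in 241 (20.2%) neither was. Over all 2489 genes, the same upward division gave 26.9% for a lower N- value alone, 16.1% for a higher NR value alone, 2.69% for both and 54.3% for neither. At 48 h NR 855 of the 1193 (71.7%) were within 2-fold of 6 h N-, a share near that of all genes, 74.6%. After centring, the N- value alone was past the limit in 305 of 542 genes (56.3%) and the NR value alone in 82 (15.1%). On that scale these shares were 14.6% and 11.1% of all 2489 genes, so the share for NR alone was near that of all genes.

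This division varied by cluster. In cluster 4 the deprived cells were far from 6 h N- and the resupplied cells were near it. Counted from 6 h N-, the median gene of this cluster was at -1.67 at 48 h N- and at 0.17 at 48 h NR. Of its 357 higher genes, 322 (90.2%) were past the limit in N- alone, beside 343 of all 418 genes of the cluster (82.1%). At 48 h NR 341 of the 357 (95.5%) were within 2-fold of 6 h N-, as were 395 of the 418 (94.5%). Cluster 3 lay in between, at -0.82 in N- and 0.47 in NR in the median. Of its 590 higher genes, 293 (49.7%) were past the limit in N- alone, 54 (9.15%) in NR alone and 215 (36.4%) in neither. Over all 872 genes of the cluster these shares were 35.4%, 6.31% and 55.0%. In the 215 the difference was the sum of a lower N- value and a higher NR value, each under 2-fold.

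Cluster 1 held 2 unlike sets. Its 246 higher genes were mostly above 6 h N- after resupply. Of them 214 (87.0%) were past the limit in NR alone, beside 344 of all 798 genes of the cluster (43.1%). The median NR value of the 246 was 1.63 above 6 h N-. Their median N- value was 0.11 above it. Its 42 lower genes showed the opposite arrangement, since 41 of them were within 2-fold of 6 h N- at 48 h NR. At 48 h N- 32 of the 42 were more than 2-fold above it, with a median of 1.36. Such an N- value was found in 80 of all 798 genes of the cluster and in 102 of all 2489 genes. Cluster 2 differed from both sets. Of its 167 lower genes, 108 (64.7%) were past the limit in NR alone, and in 145 (86.8%) the deprived cells were within 2-fold of 6 h N-. The latter held for 362 of all 401 genes of the cluster (90.3%) and for 66.3% of all genes, so it does not set the lower genes apart within cluster 2. The median NR value of these 167 genes was 1.28 below 6 h N-. The NR value was more than 2-fold below 6 h N- in 120 of the 167. This held for 148 of all 401 genes of the cluster and for 165 of all 2489 genes. After centring the N- value alone was past the limit in 125 of the 161 lower genes of cluster 1, and the NR value alone in 137 of the 282 of cluster 2.

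**Figure D3:**
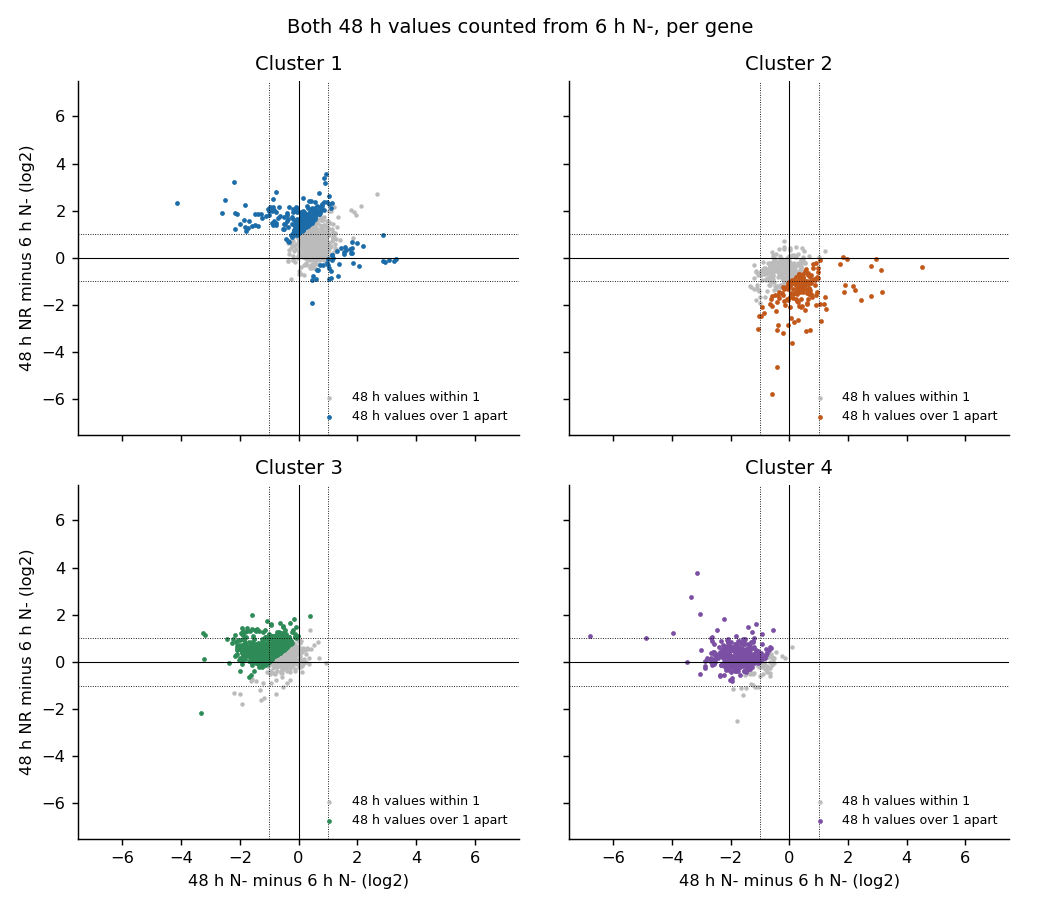
Each point is a gene, placed by 48 h N- minus 6 h N- (horizontal) and 48 h NR minus 6 h N- (vertical), both log2, in 1 panel per cluster; dotted lines mark 1 and -1, and coloured points are genes whose 48 h values lie more than 1 apart. Coloured genes of cluster 4 spread to the left near the horizontal zero line (median -1.76 in N- and 0.21 in NR for the 357 higher genes), those of cluster 2 lie below it, and those of cluster 1 form an upper group and a small group to the right.

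The other matched hours show when each set took its 48 h side. These contrasts use other columns than the 48 h contrast. As deposited, the numbers of genes past the limit at 48 h were like those at 24 h and 72 h (54.5% and 55.0% of all genes either way) and lower than at 6 h and 12 h (89.0% and 94.1%). After centring, 998 genes were past it at 48 h and 1006 at 24 h, but 1418 at 72 h. The spread between quartiles over genes was 1.59 at 24 h and 48 h, against 3.95 at 6 h, 4.33 at 12 h and 2.24 at 72 h. For 118 genes (4.74%) the difference at 48 h was the largest in size of the 5 hours, while 1066 had it at 12 h and 973 at 6 h. After centring 266 genes (10.7%) had it at 48 h, beside 294 at 24 h and 286 at 72 h.

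Of the 1193 genes higher at 48 h, 681 were higher at 24 h as well, where 44.0% of all genes were, and 950 were higher at 72 h, where 47.2% of all genes were. Both held for 523 genes (43.8%). At 12 h 879 of the 1193 (73.7%) had been lower in NR, where 62.8% of all genes were, and 256 had been higher, against 31.3%. Of the 209 lower genes, 149 were lower at 24 h and 131 at 72 h, where 10.5% and 7.87% of all genes were, and both held for 90. At 12 h 147 of them had been lower and 35 higher. The centred counts of genes on the same side at 24 h, 48 h and 72 h were 118 higher and 247 lower, where 22.3% and 18.2% of all genes were higher and lower at 24 h and 27.3% and 29.7% at 72 h. On that scale 34.0% of all genes were higher and 32.5% lower at 12 h.

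As deposited, most of the higher genes of cluster 3 were past the limit upward by 24 h and most of those of cluster 4 were not. The 590 higher genes of cluster 3 had a median difference of -3.19 at 12 h, 1.39 at 24 h, 1.62 at 48 h and 2.31 at 72 h. At 24 h 434 of them were already higher, and 429 were higher at 24 h and 72 h both. The 357 higher genes of cluster 4 had medians of -2.62 at 6 h, -1.74 (12 h), 0.14 (24 h), 1.95 (48 h) and 1.76 (72 h). At 24 h 21 of the 357 were higher, and at 72 h 303 were. The centred medians of the higher genes gave the same order, with 0.81 at 24 h and 1.33 at 48 h in cluster 3. In cluster 4 they were -0.34 and 1.61. On that scale 89 of 241 higher genes of cluster 3 (36.9%) were past the limit at 24 h. In cluster 4 10 of 226 were (4.42%). The centred median of cluster 4 at 12 h was -0.25, so its low start at that hour depends on the scale.

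The 246 higher genes of cluster 1 ran the other way in time. All 246 were higher at 12 h as well (median 2.75), where 31.3% of all genes were. So were 30 of the 42 lower genes of the cluster, and after centring all 161 of its lower genes were. The clusters were formed from these columns, so being higher at 12 h does not by itself set the 246 apart within cluster 1. At 24 h 226 of the 246 were still higher (median 1.76), beside 44.0% of all genes. The median of the 246 was 1.38 at 48 h and 0.45 at 72 h, when 77 were still past the limit. The 42 lower genes of the same cluster had been above deprivation early, with medians of 2.01 at 6 h and 1.33 at 12 h, and later medians of -0.37 (24 h), -1.38 (48 h) and -1.75 (72 h). The 167 lower genes of cluster 2 were low at each matched hour, with medians of -2.20, -2.40, -1.85, -1.65 and -1.12 from 6 h to 72 h. In this cluster 67 genes were lower at each of the 5 hours. In cluster 1 45 genes were higher at each of them, and clusters 3 and 4 had 0 such genes. After centring these counts were 66 in cluster 2 and 22 in cluster 1. At 6 h, the hour not yet given by direction, 30.0% of all genes were higher and 59.0% lower.

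**Figure D4:**
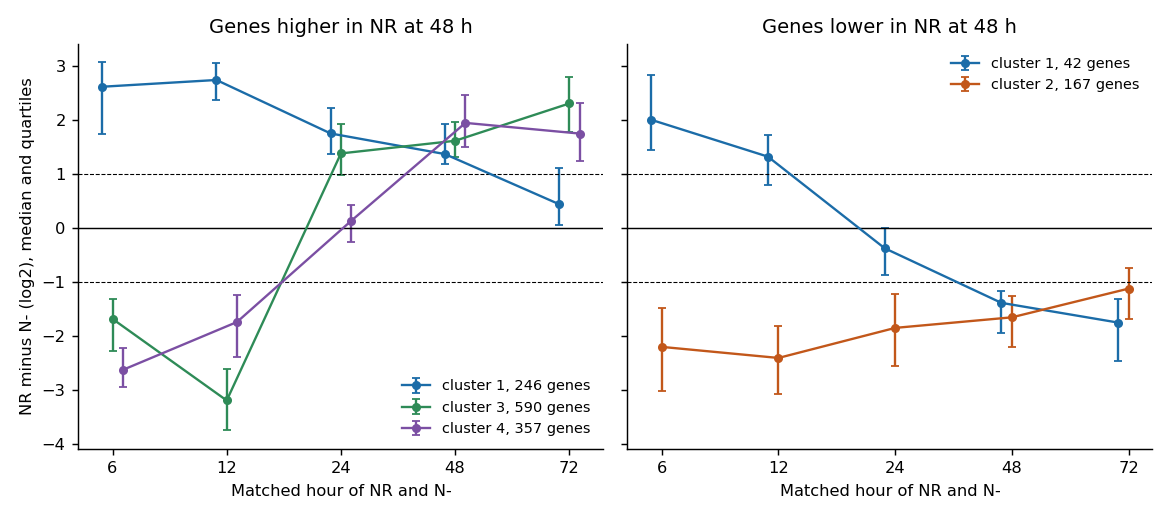
The vertical axis is NR minus N- on the log2 scale at each matched hour (horizontal) for the genes that were past 1 at 48 h, as deposited; points are medians over genes and bars the quartiles. Higher genes of cluster 3 are at 1.39 and those of cluster 4 at 0.14 at 24 h, while higher genes of cluster 1 decline from 2.75 at 12 h to 0.45 at 72 h; values at 48 h are past 1 by selection.

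The largest difference belonged to augustus_masked-nanno_1644-abinit-gene-0.9, in cluster 4, a gene model predicted on contig 1644. Its level was 9.79 at 48 h N- and 17.69 at 48 h NR, a difference of 7.89, or 238-fold (143-fold after centring). It had been at 16.57 at 6 h N- and was already at 11.03 at 24 h N-. After resupply it was at 9.45 at 6 h, 14.02 at 12 h, 15.30 at 24 h and 16.17 at 72 h, so 48 h NR was its highest value of all 10 columns. Both sides of the contrast were past the limit, at -6.78 for the N- value and 1.11 for the NR value, counted from 6 h N-.

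The next, maker-nanno_4100-augustus-gene-0.5 of cluster 4, is a model promoted by evidence on contig 4100. It was at 9.70 at 48 h N- and 16.61 at 48 h NR, a difference of 6.91, or 120-fold (72.3-fold after centring). At 6 h it was lower in NR, at 9.83 against 12.83 in N-. Unlike most of its cluster it was higher in NR by 12 h, at 14.85 against 10.63 at 12 h N-. Its NR value at 48 h stood 3.78 above 6 h N-. The only other gene listed for contig 4100 had a similar profile, with a difference of 6.10 at 48 h. Its Pearson correlation with maker-nanno_4100-augustus-gene-0.5 over the 10 columns was 0.99. Its level minus that of maker-nanno_4100-augustus-gene-0.5 ran from -1.56 to -0.38 over these columns. Whether the pair is 1 transcript counted under both models was not tested.

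The largest differences downward were found in cluster 2. The gene augustus_masked-nanno_494-abinit-gene-0.1 was at 10.82 at 48 h N- and 5.65 at 48 h NR, 36.2-fold lower (60.0-fold after centring). In deprivation it stayed between 10.67 and 11.50 from 12 h to 72 h. In NR it was at 5.29, 4.93 and 5.00 at 6, 12 and 24 h and at 7.76 at 72 h, so its difference lay on the resupply side. The gene augustus_masked-nanno_748-abinit-gene-0.0 was at 9.12 at 48 h N- and 4.20 at 48 h NR, 30.3-fold lower (50.3-fold after centring). Its difference lay on the other side, since it was at 4.59 at 6 h N-, at 8.44 at 24 h N- and, by 48 h N-, 4.53 above its first value, while 48 h NR was 0.39 below it.

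Cluster 1 held genes at both ends, on a single contig. The model maker-nanno_758-snap-gene-0.10 was at 7.02 at 48 h N- and 13.47 at 48 h NR, 87.7-fold higher (52.9-fold after centring). The model maker-nanno_758-snap-gene-0.12, also on contig 758, was at 14.73 and 11.33, 10.6-fold lower (17.5-fold after centring). The first stood at 11.15 at 6 h N-, 7.28 at 72 h N- and 12.83 at 12 h NR. The second stood at 11.40 at 6 h N- and 15.30 at 72 h N-, was at 17.31 at 6 h NR, and came down to 13.74 at 24 h NR before 48 h.

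Another model of contig 758, snap_masked-nanno_758-abinit-gene-0.5, was at 12.69 at 48 h N- and 9.30 at 48 h NR, 10.5-fold lower. Its gap to maker-nanno_758-snap-gene-0.12 varied by 0.36 over the 10 columns, with a correlation of 0.998, so these may not be independent counts. Both are also the genes with the largest 48 h difference among the 35 that had been higher in NR at 12 h and were lower at 48 h. The other gene with the largest difference upward in cluster 1, maker-nanno_1070-augustus-gene-0.14, was at 9.37 at 48 h N- and 14.79 at 48 h NR, a difference of 5.42. Its differences at 12 h, 24 h and 72 h were 4.60, 3.95 and 3.99.

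**Figure D5:**
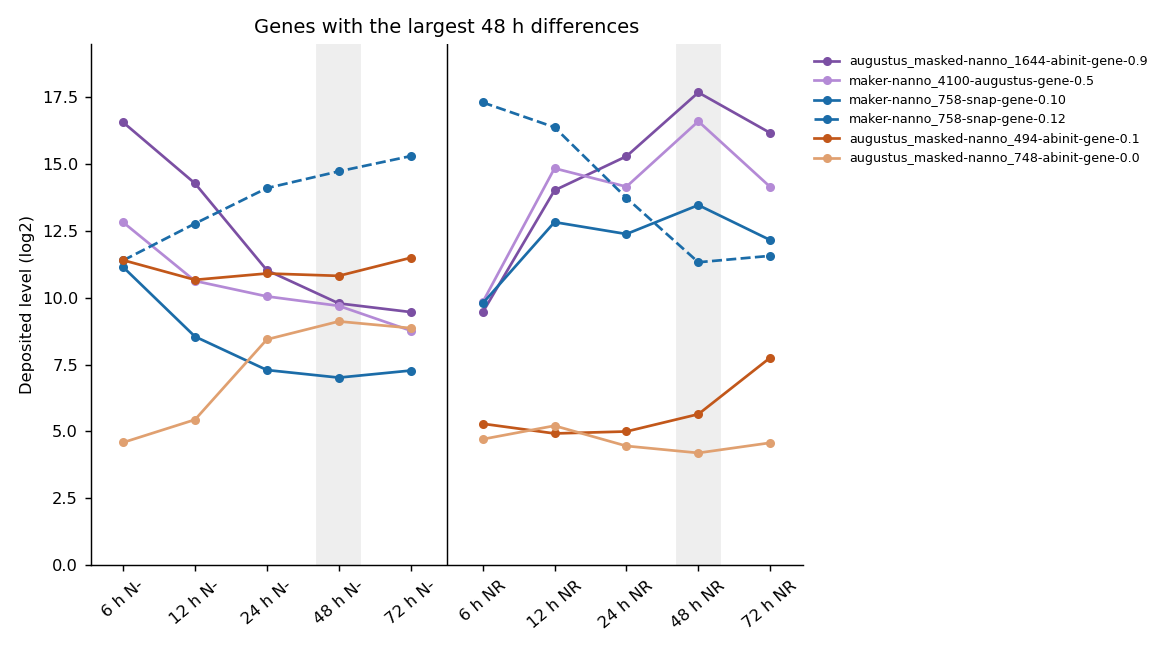
Deposited log2 level (vertical) of 6 genes in each of the 10 groups (horizontal), deprivation on the left of the black line and resupply on the right, 1 value per group; grey bands mark the columns at 48 h. The genes on contigs 1644 and 4100 peak at 48 h NR (17.69 and 16.61). The genes on contigs 494 and 748 are low there (5.65 and 4.20). The dashed blue gene of contig 758 lies above the solid one through 24 h NR and below it from 48 h NR.

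Among the genes that turned from lower in NR at 12 h to higher at 48 h, the largest 48 h differences belonged to a pair on contig 445. The gene augustus_masked-nanno_445-abinit-gene-0.2 of cluster 4 had differences of -4.70 at 12 h, 2.86 at 24 h, 5.18 at 48 h and 5.21 at 72 h. Its levels were 3.59 at 48 h N- and 8.77 at 48 h NR. The gene snap_masked-nanno_445-abinit-gene-0.9 of cluster 3 had differences of -4.16, 2.30, 4.48 and 5.11 at the same hours, and its correlation with the first over the 10 columns was 0.99 although the authors' clustering put them apart. The N- levels of such genes are low (4.22 for the second), and how this affects the size of the difference was not tested. The gene maker-nanno_1060-augustus-gene-0.15 of cluster 3 was at 4.07 and 8.38, a difference of 4.31, and had been at 9.20 at 24 h NR.

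A difference found at 48 h and at no other matched hour was rare. The scale as deposited left little room for one, since 89.0% of all genes were past the limit at 6 h and 94.1% at 12 h. As deposited, 1 gene was past the limit at 48 h alone, augustus_masked-nanno_934-abinit-gene-0.5 of cluster 4, with 8.92 at 48 h N- and 10.23 at 48 h NR. Its difference of 1.31 became 0.58 after centring, and its difference at 72 h was 0.90. After centring, 22 higher and 17 lower genes were past the limit at 48 h alone.

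The level at 48 h NR was also set against the whole range of the 5 deprivation values. It lay above every N- value in 1064 genes, in 229 of them by more than 2-fold, and below every N- value in 344, in 103 of them by more than 2-fold. Of the 229 genes, 208 belonged to cluster 1, 12 to cluster 4 and 9 to cluster 3, and all 103 belonged to cluster 2. So most of the higher genes of clusters 3 and 4 were not 2-fold above the highest level of deprived cells. After centring 649 genes were above every N- value and 542 below, so the excess upward was far smaller on that scale. Of these, 74 were above and 148 below the range by more than 2-fold, 62 of the first in cluster 1 and 145 of the second in cluster 2.

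The identifiers also carry the kind of gene model, and the counts were nearly the same for each kind. Models promoted by evidence were higher in 47.8% of 866 cases, augustus predictions in 46.8% of 888 and snap predictions in 49.4% of 735, beside 47.9% of all genes. Lower genes made up 7.51%, 8.33% and 9.52%. In cluster 1 the kinds differed, with 38.2% of 372 evidence-based models higher against 14.0% of 150 snap predictions. With the genes ranked by mean level over the 10 columns and cut into 4 equal bins, the share of higher genes was 53.9% in the lowest bin, 47.4% and 41.3% in the next ones and 49.0% in the highest. In cluster 1 it was 11.4% in the lowest bin and 44.6% in the highest, so kind of model and level moved together with the count there, and their part in it was not tested.

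The genes lay on 1215 contigs, of which 483 held at least 2 of them. Over the 3879 pairs of genes that share a contig, both were higher in 22.2% of pairs and both lower in 1.19%. The members were past the limit in opposite directions in 6.73%. Over all pairs of the 2489 genes these shares were 23.0%, 0.70% and 8.05%. The median gap between the differences of a pair was 1.00 on the same contig and 1.15 over all pairs. Of the 166 contigs with 4 or more of the genes, 49 held higher and lower genes both. In 10 of the 166 all genes were higher and in 1 all were lower. Contig 373 had 6 genes, all higher, with differences from 1.05 to 3.22, and contig 1063 had 4 genes, all lower, from -3.75 to -1.60. Contig 564, with 23 genes the one with the most, had 12 higher and 1 lower. Pairs on a contig can overlap and share reads, which could not be checked here.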

How the data were processed

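RNA was profiled in 44 libraries in 11 groups of 4, of which the 8 at 48 h carry the contrast described. Per the labels' protocols, single-end reads were trimmed with Trimmomatic 0.32, aligned to the CCMP1779 assembly with STAR 2.3.0e (unique hits, at most 4 mismatches) and counted on exons with HTSeq 0.6.1. The authors tested condition and its interaction with time with DESeq2 (adjusted p below 0.01, log2 fold change above 1). They split the called genes into 4 k-means clusters. The deposited values are on a log2 scale, inferred from their range of 1.46 to 19.46, with 1 value per gene and group. The sources used here do not give their scaling or the way libraries were joined. Depth per library is unknown.

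Differences of columns, counts past 1 and medians were computed with Python 3.11.15, numpy 2.4.6 and pandas 2.3.3, and checked on simulated data. The planned tests across libraries were not possible with 1 value per group, so sizes are described. Alternatives were other scalings, limits, filters and control columns. Members, gene-naming rules and alternatives were chosen with earlier results of these data known. For the whole contrast and each cluster, the rule named the 2 genes with the largest and the 2 with the most negative difference past 1. For genes turned since 12 h, past 1 at 48 h alone, or above every N- value, it named the 2 with the largest size.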

Additional observations from a re-analysis of the deposited data

Results flagged for a closer look

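The contrast of resupply with deprivation had opposite directions at 12 h and at 48 h in many genes. Lower in NR at 12 h but higher at 48 h, past 2-fold each time, were 879 genes, of which cluster 3 held 578 and cluster 4 held 301. In 35 genes it was above at 12 h and below at 48 h, 30 in cluster 1 and 5 in cluster 2. The contrasts use different columns, each with 1 value per gene, and the difference between the hours was not tested. The genes were selected in part for a change of the contrast with time, so turns are favoured by the selection. After centring the counts were 279 and 189. The 279 were 221 genes of cluster 3 and 58 of cluster 4, so that 25.7% of the higher genes of cluster 4 had turned, against 84.3% as deposited. By 24 h 432 of the 879 were already past the limit upward, 423 of them in cluster 3. The other 447 were not, 292 of them in cluster 4. On the centred scale 77 of the 279 were, 76 of them in cluster 3, and 202 were not, 145 of them in cluster 3.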

How the results depend on the processing

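No paired analysis was possible because each group has 1 deposited value, and leaving out replicates was not run for the same reason. Of 142 recomputed values 60 stayed close to the reported one (counts within 1.5 times, medians within 0.1), 79 moved and 3 reversed. The 3 are the median of cluster 1, which was -0.24 after centring on the median of all genes, -0.15 after centring on the mean of the 4 cluster medians and -0.45 after scaling to the same linear sum. The scalings took 0.73, 0.63 and 0.93 off each difference. Each is more than the median of cluster 1 as deposited, 0.49, so the change of sign is arithmetic. Which scaling is right is not known.

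Under these 3 scalings in that order, 542, 610 and 407 genes were higher and 456, 418 and 562 lower, with overall medians of 0.22, 0.32 and 0.018. Cluster 1 had 75, 83 and 62 genes higher and 161, 138 and 225 lower. Cluster 2 had 282, 271 and 314 lower, with medians of -1.53, -1.43 and -1.73. Cluster 3 had 241, 287 and 165 higher and 12, 8 and 22 lower, with medians of 0.61, 0.71 and 0.41. Cluster 4 had 226, 240 and 180 higher and 1 lower each time, with medians of 1.08, 1.18 and 0.88. Quantile normalisation gave 498 higher and 479 lower genes. On the centred scale, 118 higher and 247 lower genes were on the same side at 24 h and 72 h, and 279 and 189 had been on the opposite side at 12 h. There the NR value was past the limit from 6 h N- in 110 higher and 198 lower genes (337 and 121 as deposited), and the N- value in 333 and 205 (682 and 52).

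With a limit of 2, 367 genes were higher and 61 lower. Cluster 1 then had 57 higher and 9 lower, cluster 2 had 52 lower, and clusters 3 and 4 had 142 and 168 higher. The same side at 24 h and 72 h held for 55 and 18 of them and the opposite side at 12 h for 211 and 5. With a limit of 0.5, 369 genes were lower. Cluster 1 then had 394 higher and 111 lower, cluster 2 had 14 higher and 251 lower, and clusters 3 and 4 had 6 and 1 lower. Evidence-based models alone gave 414 higher and 65 lower genes of 866. Without the lowest of 4 equal bins of genes by mean level, clusters 3 and 4 had 393 and 226 higher, and fewer genes were counted by construction.

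With 72 h N- as control, the overall median was 1.20 and those of clusters 3 and 4 were 2.06 and 2.20, with 1 gene of cluster 2 higher. With the mean of 24 h and 72 h N- in place of 48 h N-, the median of cluster 4 was 1.48. With the mean of 24 h and 72 h NR in place of 48 h NR, cluster 1 had 150 genes higher, cluster 2 had 1, and the medians of clusters 3 and 4 were 1.78 and 1.21. Depth is unknown, so it cannot be said which low values are limited by it.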

Other observations

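The 48 h NR column was also set against its neighbours in time. Over all genes the median of 48 h NR minus the mean of 24 h and 72 h NR was 0.01. In cluster 3 it was -0.41, with 124 genes more than 2-fold below that mean and 0 above, and in cluster 4 it was 0.66, with 58 genes above and 6 below. The corresponding value for 48 h N- was -0.03 over all genes, with 5 genes past the limit in total. The level at 48 h NR was the highest of the 10 columns in 212 genes, 168 of them in cluster 4, and the lowest in 29. After centring it was the highest in 119 genes, 88 of them in cluster 4, and the lowest in 83. The clusters were formed from these columns, so the counts describe them.

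Set against 72 h N-, from which resupply started, the model augustus_masked-nanno_1644-abinit-gene-0.9 was 298-fold higher at 48 h NR and maker-nanno_4100-augustus-gene-0.5 was 228-fold higher. The gene augustus_masked-nanno_494-abinit-gene-0.1 was 57.8-fold lower.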
